A study of Homo sapiens with 4 samples.

Results

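The IL1 family cytokines and receptors were followed in the established cell line Hs746T, a gastric carcinoma line that carries both an exon-skipping mutation and an amplification of MET, the receptor tyrosine kinase for hepatocyte growth factor. All probes on the array for IL1A, IL1B, IL1RN, IL18, IL33, IL1R1, IL1RAP, IL1RL1 and IL18R1 were taken, which gave 14 probes for 9 genes, out of 34127 probes and 19740 genes with a name. Total RNA was measured on 4 single-colour arrays, 1 for each condition. The conditions were DMSO, the solvent control; PHA665752, a small-molecule inhibitor of the MET kinase; sc siRNA, a scrambled small interfering RNA that served as the transfection control; and MET siRNA, the most effective of the siRNAs designed against MET. All of these cells were of the same line, maintained in the same serum-containing medium. Cells of both siRNA groups had also gone through lipid transfection in another medium, Opti-MEM, before a change to complete medium. The dose and duration of PHA665752 for the array were not given in the sources used here. The study asked how expression of immune-related genes depends on MET, so the inhibitor is read against its solvent and MET siRNA against the scrambled siRNA. The controls were also compared with each other, sc siRNA over DMSO, as a measure of how far arrays differ when MET is not targeted; this pair shares an array with each of the others.

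IL1A and IL1B are the agonist cytokines of the family. They bind the receptor IL1R1, which then recruits the accessory chain IL1RAP, and the pair signals through MYD88 and IRAK kinases to NF-kB, while IL1RN encodes the antagonist that occupies IL1R1 without signalling. IL18 and IL33 act through their own receptors, IL18R1 and IL1RL1 (ST2), and IL1RAP is also the second chain of the IL33 receptor. In epithelial tissues such as the stomach, IL1A, IL18 and IL33 can be made by the epithelium itself, whereas IL1B is best known as a product of inflamed myeloid cells and requires cleavage, as IL18 does, by the inflammasome protease CASP1.

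With no replicate arrays, the values have no error between cultures and no test was possible; past 2-fold is used below as a fixed threshold of size. The share of probes well above background lay between 61.1% and 68.2% over the arrays, and 1.69% to 5.58% of the spots carried an outlier mark, the most on the MET siRNA array. For probes with a signal of 100 to 1000, the spread between spots of a probe corresponds to an SD of 0.077 to 0.089 for a log2 ratio of single spots, and for signals of 20 to 100 to 0.14 to 0.17, which covers neither culture nor hybridization. MET itself had signals of 221450 for DMSO, 100490 for PHA665752, 190010 for sc siRNA and 77853 for MET siRNA. It was thus 2.52-fold lower with MET siRNA than with sc siRNA, in the direction of the label, and 1.90-fold lower with PHA665752 than with DMSO. The epithelial markers EPCAM, KRT8, KRT18, KRT19 and MUC1 were well above background on all arrays, as were the mesenchymal genes CDH2, ZEB1 and FN1. The mesenchymal gene VIM had signals of 291840 for DMSO and 276820 for PHA665752 but no usable spot on the siRNA arrays. The epithelial CDH1 was dim, with signals of 33.0, 30.2, 13.1 and 10.4 in the array order used above, the last not well above background. Of the epithelial list MUC1 (3.26-fold) and of the mesenchymal list FN1 (3.89-fold) were past 2-fold higher with PHA665752; of the endothelial list VWF (6.84-fold) was higher and PECAM1 (5.23-fold) lower, and no lymphocyte marker passed 2-fold.

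With PHA665752 the cytokines IL1A and IL1B were higher and the receptor chains IL1R1 and IL1RAP were lower than with DMSO, each past 2-fold. Of 8 members with a ratio in this pair, taking for each gene its brightest probe, 2 were thus higher and 2 lower past 2-fold, where 13.1% and 8.04% of 14322 named genes were. Under scaling to the 50th percentile the array-wide shares became 9.07% and 12.3%, because that scaling moved the whole pair by -0.25 on the log2 scale, and 1 member was then higher and 2 lower. With normexp background correction 0 members were higher and 1 lower, beside 6.73% and 5.92% of named genes. The median log2 ratio of the members was -0.22, beside 0.07 for all named genes. With MET siRNA none of 6 members with a ratio was past 2-fold in either direction, while 2.04% of 13647 named genes were higher and 0.696% lower. The median of the members was -0.08 and 5 of the 6 lay below 0, beside a median of -0.02 and 7231 of 13647 below 0 for all named genes. Between the controls none of 7 members passed 2-fold, beside 2.89% and 1.16% of 14274 genes, and their median was 0.04. A probe was given a ratio where both arrays were well above background. Where only one was, a bound was given if the brighter signal exceeded the background limit of the other array, and no value otherwise; bounds are included in the counts of members and genes with a ratio. Of the 9 genes, 6 had a probe well above background on all arrays, and IL1A, IL1B and IL33 did not.

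**Figure D1:**
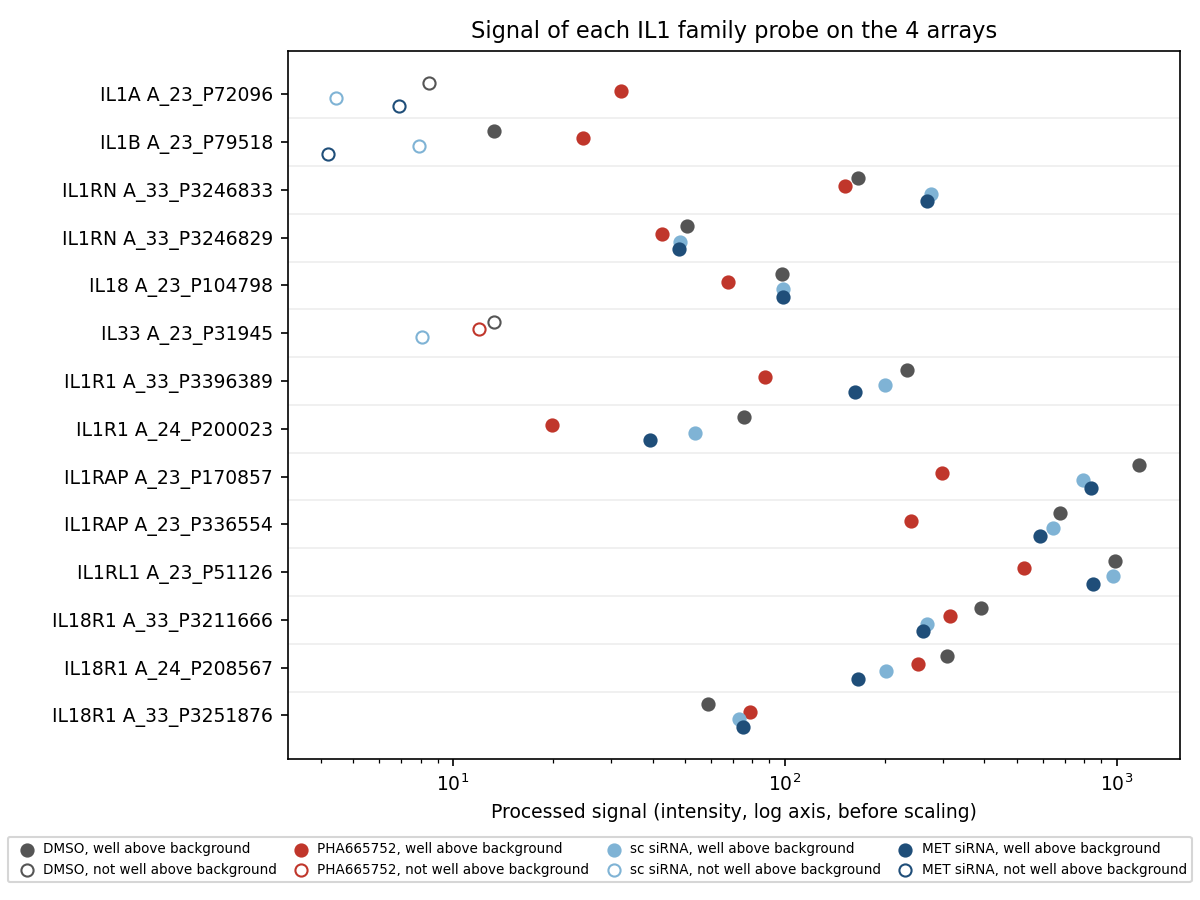
Processed signal (horizontal log axis, intensity before scaling) of each of the 14 IL1 family probes on the 4 arrays, with filled points for probes well above background and open points for those that were not. The PHA665752 point stands apart to the right for IL1A and IL1B and to the left for IL1R1 and IL1RAP; probes of different genes are not comparable in level.

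IL1A, the agonist that also serves as a nuclear alarmin in epithelial cells, had a single probe, spotted 10 times. Its signal was 8.50 for DMSO, 32.2 for PHA665752, 4.45 for sc siRNA and 6.90 for MET siRNA. Only on the PHA665752 array was it well above background, so the difference is a bound, at least 3.44-fold higher than with DMSO (log2 1.78). All 10 spots were well above background with PHA665752, from 29.1 to 36.0, against 1 of 10 with DMSO, where they ran from 5.47 to 11.9. The ranges of these spots did not overlap, and their means, taken after scaling, differed by 2.13 on the log2 scale, with an SE of 0.11 that covers the spread between spots alone. On both siRNA arrays no usable spot was well above background, so no ratio is given; the spots ran from 2.80 to 6.30 with sc siRNA and from 3.95 to 9.67 with MET siRNA. The bound stayed past 2-fold in 8 of 9 alternatives and was 0.62 on the log2 scale with normexp background correction, which adds an offset to every spot.

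IL1B, the secreted agonist, was also spotted 10 times. Its signal was 13.4 for DMSO, 24.7 for PHA665752, 7.93 for sc siRNA and 4.21 for MET siRNA. It was well above background with DMSO and PHA665752 and not on either siRNA array. With PHA665752 it was 2.15-fold higher than with DMSO (log2 1.10, SE over spots 0.097). The 10 spots with PHA665752, from 20.5 to 31.0, all lay above the 6 usable spots with DMSO, from 11.8 to 15.9. The sc siRNA spots were uneven, from 5.39 to 18.6 with 2 of 10 well above background, and the 8 usable MET siRNA spots ran from 3.46 to 7.49 with none. Between the controls, IL1B was at least 1.10-fold brighter with DMSO than with sc siRNA. The size of the PHA665752 difference depended on the processing, since only 6 of 10 alternatives kept it past 2-fold and the log2 ratio went down to 0.35 with normexp background correction. Those 6 include the signal floor and the changes of filter, which cannot alter a ratio of a probe well above background on both arrays. The neighbouring gene pair thus shared the direction, but IL1A lay at rank 559 and IL1B at rank 1620 from the largest rise among 14322 genes. As arrays of bulk RNA, these data cannot tell apart more RNA per cell and more cells that express the gene.

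**Figure D2:**
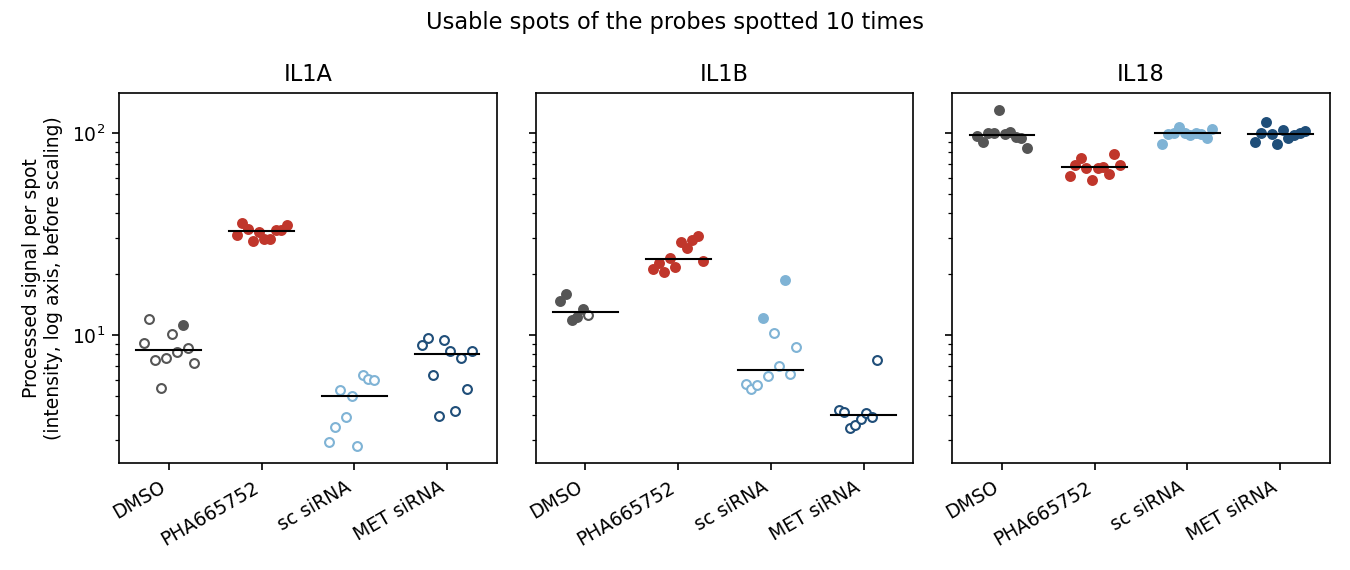
Signal of each usable spot (vertical log axis, intensity before scaling) for the 3 members spotted 10 times, IL1A, IL1B and IL18, on each array. Filled points are spots well above background, open points are not, and bars mark the median; for IL1A and IL1B no PHA665752 spot falls within the range of the DMSO spots.

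Because IL1B is typical of myeloid cells, the fixed myeloid markers were read beside it. Of the 7 genes of this list with a probe, 6 were well above background on all arrays, and their summed signal was 8195 for DMSO, 7978 for PHA665752, 12332 for sc siRNA and 12727 for MET siRNA, most of it from CD68, which many cell types express. With PHA665752 a single gene of the list was past 2-fold, CD163 (log2 2.75), beside 13.1% of named genes higher and 8.04% lower, and the median was 0.06. PTPRC, the pan-leukocyte marker, gave different values by probe. Its brightest probe had a signal of 37.8 with DMSO and 31.9 with PHA665752 (log2 -0.03), a dimmer one had 11.7 and 21.2 (log2 1.07), and its other probes were not well above background on any array. FCGR3A was not well above background on any array. Whether CD163, the dimmer PTPRC probe and the cytokines have a common source was not tested.

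The stretches of 250 bases that precede the annotated starts of IL1A and IL1B are shown because both genes moved in the same direction from a low level. They were taken from RefSeq (GRCh38.p14), on the minus strand of chromosome 2, at chr2:112784494-112784743 for IL1A and chr2:112836780-112837029 for IL1B, with the outermost start in the table where there are several. Capitals mark matches on either strand. The letters searched were TGANTCA for the AP-1 element and, for the promoter boxes, those of the CCAAT box as in its name, GGGCGG for the box bound by SP1 (GC box) and TATAAA for the box bound by the TATA-binding protein; no matches overlapped.
IL1A: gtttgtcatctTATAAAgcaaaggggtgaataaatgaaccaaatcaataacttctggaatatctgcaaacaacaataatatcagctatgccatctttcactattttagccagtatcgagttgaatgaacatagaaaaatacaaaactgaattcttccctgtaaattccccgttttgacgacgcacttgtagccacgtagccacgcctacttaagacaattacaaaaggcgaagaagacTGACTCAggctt
IL1B: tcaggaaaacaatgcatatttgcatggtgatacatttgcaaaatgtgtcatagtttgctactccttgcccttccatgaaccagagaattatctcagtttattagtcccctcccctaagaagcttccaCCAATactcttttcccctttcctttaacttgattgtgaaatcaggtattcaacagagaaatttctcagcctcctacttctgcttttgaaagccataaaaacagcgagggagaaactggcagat
The IL1A window held an AP-1 match 12 to 6 bases before the start and a TATA box match 239 to 234 bases before it, and the IL1B window held a CCAAT match 123 to 119 bases before its start. These letters were not particular to the members that were higher with PHA665752. The IL1RN window held an AP-1 match 223 to 217 bases before its start. That of IL1RL1 held a TATA box match 29 to 24 bases before its start, and CCAAT matches were also found for IL33, IL1RAP and IL1RL1. Among 35114 windows of the same length, 6.57% held the AP-1 letters, 10.7% the TATA box and 32.0% the CCAAT box. The GC content was 37.6% for IL1A and 40.0% for IL1B, beside a median of 58.0% over all windows. The NF-kB motif kappaB, which 5.21% of all windows hold, had no match in the window of any member with an entry.

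IL1RN, the antagonist, had its largest log2 ratio between the controls. Its brighter probe had signals of 167 for DMSO, 152 for PHA665752, 276 for sc siRNA and 269 for MET siRNA, so both siRNA arrays stood above the other arrays. Its log2 ratios for the inhibitor and for MET siRNA were 0.09 and -0.09, while between the controls it reached 0.98, at rank 420 from the largest rise among 14274 genes. The second IL1RN probe did not share this, with signals of 50.7, 42.6, 48.3 and 48.0 in the same order and a log2 ratio of 0.18 between the controls. The probes thus disagreed by 0.80 on the log2 scale, although the files give the same transcript accession for both. The sign of the PHA665752 ratio of the brighter probe turned under 3 of 10 alternatives, to -0.16 at the lowest, so no direction is given for it.

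IL18, which belongs to the epithelial cytokines of the family, was spotted 10 times and was well above background on all arrays. It had signals of 98.5 for DMSO, 67.4 for PHA665752, 98.8 for sc siRNA and 98.6 for MET siRNA. Before scaling, the array with PHA665752 stood below the others, which differed little. As log2 ratios, PHA665752 gave -0.33 (SE over spots 0.065), MET siRNA gave -0.05 and the controls 0.26. After scaling, 8 of 10 PHA665752 spots lay below all DMSO spots, and the ranges overlapped. The PHA665752 ratio, which is of a similar size to that between the controls, was negative under all 10 alternatives, from -0.59 to -0.11.

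IL33, the nuclear alarmin that is the ligand of IL1RL1, was not measurable. Its only probe had signals of 13.3 for DMSO, 12.0 for PHA665752 and 8.06 for sc siRNA, none well above background, and its spot on the MET siRNA array carried an outlier mark. No ratio is given for it in any pair.

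IL1R1, the signalling receptor for IL1A and IL1B, was lower with PHA665752 by both of its probes. The brighter probe had signals of 234 for DMSO, 87.3 for PHA665752, 201 for sc siRNA and 163 for MET siRNA. The second probe had signals of 75.7, 19.9, 53.8 and 39.4 in the same order. On both probes the order of the arrays was the same before scaling, with DMSO highest, then sc siRNA, then MET siRNA, and PHA665752 lowest. With PHA665752 the brighter probe was 2.31-fold lower (log2 -1.21) and the second 3.29-fold lower (log2 -1.72). With MET siRNA they were 1.28-fold and 1.41-fold lower (log2 -0.35 and -0.50), short of the threshold, and at rank 1325 of 13647 genes from the largest fall for the brighter probe. Between the controls the log2 ratios were 0.04 and -0.24, smaller in size than the MET siRNA ratio of the same probe. Normexp correction gave -0.68 and -0.65 for the PHA665752 ratios of the probes, and plain background subtraction left the brighter probe at -0.96.

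IL1RAP, the accessory chain that the IL1 and IL33 receptors share, had the largest fall among the members with PHA665752. The probe listed under the accession of the membrane form had signals of 1170 for DMSO, 297 for PHA665752, 790 for sc siRNA and 836 for MET siRNA. The probe listed under the accession of the soluble form had signals of 675, 241, 644 and 586 in the same order. By both probes the PHA665752 array was the lowest by a wide margin, and the siRNA arrays lay close to each other. The membrane-form probe was 3.39-fold lower (log2 -1.76), at rank 360 of 14322 genes from the largest fall, and the soluble-form probe 2.42-fold lower (log2 -1.27). Both stayed past 2-fold under all 10 alternatives, from -2.01 to -1.71 and from -1.52 to -1.16, although the signal floor and the changes of filter could not alter them. With MET siRNA the ratios were 0.03 and -0.18, no larger than those between the controls, -0.31 and 0.19. The sequence of the probes was not available here, so whether each detects a single form was not tested.

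The windows before the annotated starts of IL1R1 and IL1RAP, the members that were past 2-fold lower with PHA665752, are given in the same way as those of the ligands, on the plus strand, at chr2:102104354-102104603 for IL1R1, which has 4 starts in the table, and chr3:190513835-190514084 for IL1RAP.
IL1R1: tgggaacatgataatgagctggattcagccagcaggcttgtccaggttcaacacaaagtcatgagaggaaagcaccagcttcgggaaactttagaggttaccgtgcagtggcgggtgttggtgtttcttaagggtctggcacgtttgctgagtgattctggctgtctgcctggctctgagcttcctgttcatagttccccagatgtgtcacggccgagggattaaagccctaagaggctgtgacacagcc
IL1RAP: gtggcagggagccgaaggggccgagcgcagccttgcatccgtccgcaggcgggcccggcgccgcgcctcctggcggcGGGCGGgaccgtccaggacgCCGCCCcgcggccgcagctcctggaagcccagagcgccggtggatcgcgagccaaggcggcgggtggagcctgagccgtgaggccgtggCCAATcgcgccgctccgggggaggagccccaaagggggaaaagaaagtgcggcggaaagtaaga
The windows differ in composition. That of IL1RAP had a GC content of 74.8% with 33 CpG dinucleotides, 2 GC boxes and a CCAAT box 64 to 60 bases before the start, whereas that of IL1R1 had a GC content of 52.4% with 6 CpG dinucleotides and none of the letters searched. Of all windows, 42.6% held a GC box. Which start the cells used is not shown by these arrays.

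IL1RL1, the IL33 receptor known as ST2, was the third receptor gene that was lower with PHA665752, without passing 2-fold. Its signal was 987 for DMSO, 525 for PHA665752, 977 for sc siRNA and 848 for MET siRNA. PHA665752 again gave the lowest array, and the controls were nearly equal before scaling. PHA665752 gave a log2 ratio of -0.70, or 1.62-fold lower, and MET siRNA one of -0.25, beside 0.24 for the controls. Over 10 alternatives the PHA665752 ratio lay between -0.94 and -0.70, never past 2-fold.

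IL18R1, the ligand-binding chain of the IL18 receptor, had 3 probes that did not move together. The brightest had signals of 392 for DMSO, 315 for PHA665752, 268 for sc siRNA and 262 for MET siRNA, the second 309, 252, 202 and 167, and the third 59.0, 78.7, 72.7 and 75.2 in the same order. On the first and second probes DMSO was the highest array, and on the third it was the lowest. The PHA665752 log2 ratios were -0.10, -0.08 and 0.63, and those between the controls -0.29, -0.36 and 0.55, so the gap between probes was 0.73 in the first pair and 0.92 in the second. With MET siRNA the ratios were -0.08, -0.32 and 0.00. The files give the same transcript accession for all of these probes, and no direction is given for the gene.

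**Figure D3:**
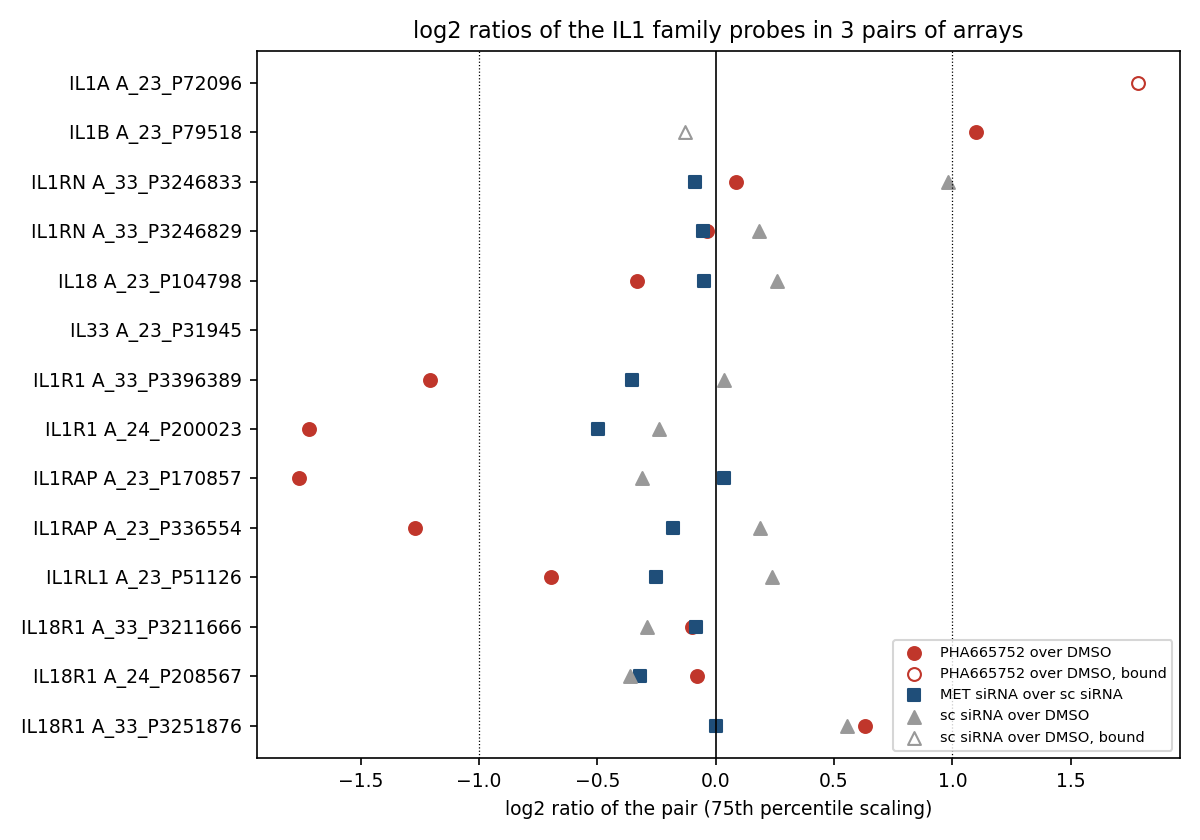
log2 ratio of each IL1 family probe (horizontal axis) for PHA665752 over DMSO (circles), MET siRNA over sc siRNA (squares) and sc siRNA over DMSO (triangles), with open symbols for bounds and dotted lines at 2-fold. Both IL1R1 and both IL1RAP probes lie left of the lower line with PHA665752, IL1A and IL1B right of the upper line, and no square passes either line.

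Several receptor genes of the family, though not IL1RAP on chromosome 3, lie next to each other on chromosome 2. Their order is IL1R2, IL1R1, IL1RL2, IL1RL1, IL18R1 and IL18RAP, with no other protein-coding gene between them. Read in this order by the brightest probe, the measured genes had PHA665752 log2 ratios of -1.21 for IL1R1, -0.70 for IL1RL1, -0.10 for IL18R1 and 0.96 for IL18RAP, the second chain of the IL18 receptor. This upward order holds for the brightest probes alone: the third IL18R1 probe was at 0.63, above the second IL18RAP probe. The brightest IL18RAP probe had a signal of 59.5 with DMSO and 99.5 with PHA665752, while the second, dimmer one had signals of 20.1 and 18.6 and a log2 ratio of 0.10. With MET siRNA the same genes had ratios of -0.35, -0.25, -0.08 and -0.11. IL1R2, the decoy receptor, and IL1RL2, the IL36 receptor, were well above background with DMSO alone, at signals of 14.9 and 10.9, which is so near the limit that IL1R2 was at least 1.04-fold brighter with DMSO than with PHA665752 and no fold is given for IL1RL2.

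**Figure D4:**
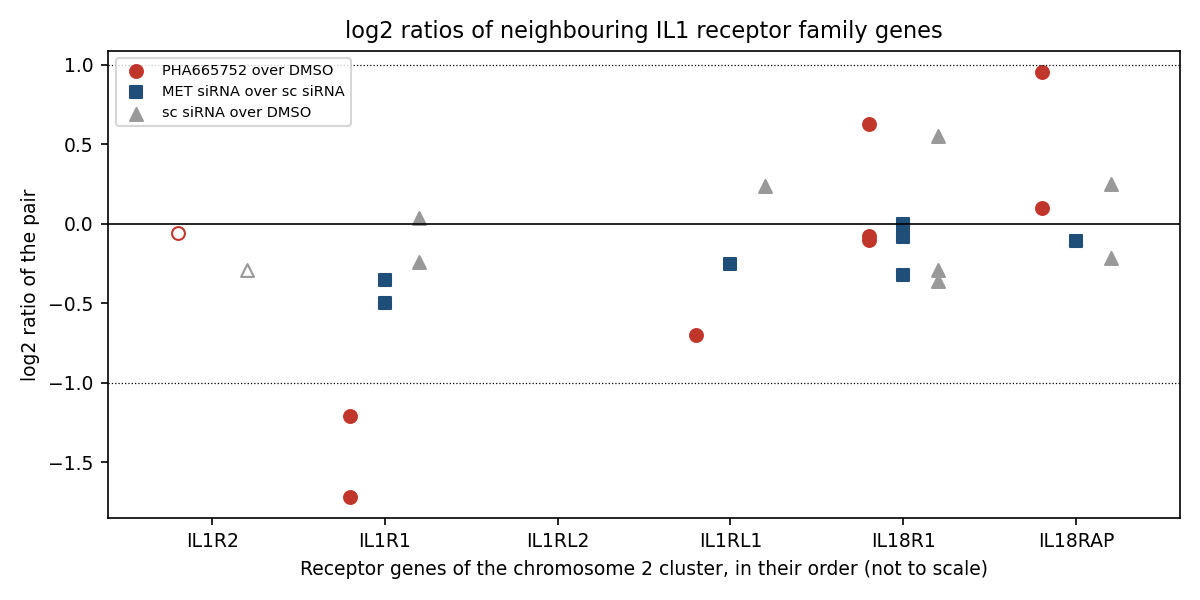
log2 ratios (vertical axis) of all probes with a ratio for the 6 neighbouring receptor genes in their order on chromosome 2, for the 3 pairs of arrays, with open symbols for bounds and dotted lines at 2-fold. PHA665752 ratios (circles) are lowest for IL1R1 and highest for one IL18RAP probe, and IL1RL2 has no ratio.

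The remaining receptors and soluble inhibitors of the family were not past 2-fold in any pair. SIGIRR, an inhibitory receptor of the family, had signals of 787 for DMSO, 609 for PHA665752, 685 for sc siRNA and 689 for MET siRNA and log2 ratios within 0.16 of 0 in all 3 pairs. IL18BP, the secreted IL18 inhibitor, had signals of 34.3, 28.8, 51.8 and 62.0 in the same order, so that, as for the brighter IL1RN probe, both siRNA arrays were higher; PHA665752 gave a log2 ratio of -0.03, MET siRNA 0.21 and the control pair 0.85. IL1RAPL1, a neuronal relative of the accessory chain, had ratios of 0.30, -0.31 and 0.03, and IL1RAPL2 was not well above background on any array.

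Among the other ligands, IL36G, an epithelial agonist of the IL36 branch, was higher with PHA665752. Its signal was 44.6 for DMSO, 127.6 for PHA665752, 29.3 for sc siRNA and 43.8 for MET siRNA. It was 3.32-fold higher with PHA665752 than with DMSO (log2 1.73) and 1.45-fold higher with MET siRNA than with sc siRNA (log2 0.53), while between the controls the ratio was -0.35. With normexp correction its PHA665752 ratio was 0.99, just within 2-fold. IL37, an inhibitory ligand, had signals of 60.8, 75.7, 49.8 and 59.4 in the same order and ratios of 0.53, 0.21 and -0.03. IL36A, IL36B and IL36RN were not well above background on any array, and IL1F10 was only on the control arrays, at signals of 12.4 and 10.9. On the chromosome, IL1A, IL1B, IL37 and IL36G are consecutive protein-coding genes, and all 4 lay above 0 with PHA665752, at 1.78 (a bound), 1.10, 0.53 and 1.73. Of all 14322 named genes with a ratio in this pair, 7863 lay above 0. IL36A, IL36B, IL36RN and IL1F10, which come next on the chromosome, had no PHA665752 ratio. IL1RN follows them, and its probes gave PHA665752 log2 ratios of 0.09 and -0.04.

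Downstream of the receptors, the adaptors and kinases of the MyD88 and NF-kB route stayed mostly within 2-fold, while the genes that this route induces diverged. Of 18 signalling genes with a PHA665752 ratio, PELI1, a ubiquitin ligase for IRAK proteins, was past 2-fold higher (log2 1.47) and none lower, with a median of 0.06. Of all named genes, 13.1% were higher and 8.04% lower in this pair. With MET siRNA none of 18 passed 2-fold, beside 2.04% of named genes higher and 0.696% lower. IRAK1, the kinase recruited by MYD88, had PHA665752 ratios of -0.94 and -0.93 by its probes. MYD88 itself was 2.74-fold higher with sc siRNA than with DMSO (log2 1.45) and was at 0.10 and 0.09 in the PHA665752 and MET siRNA pairs.

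Of the inflammasome and processing genes, which include CASP1, 13 had a PHA665752 ratio, and 3 were past 2-fold higher and 0 lower, with a median of 0.15. Of all named genes, 13.1% were higher and 8.04% lower. The 3 higher genes were the sensors AIM2 (log2 1.72) and NLRP1 (1.32) and the pore-forming protein GSDME (1.08). NLRP1 was within 2-fold under quantile normalization and normexp correction (0.51), and GSDME under normexp correction (0.98), the 50th percentile (0.84) and the median of probes well above background. AIM2 differed by 1.90 between the controls, which share the DMSO array with the PHA665752 pair, so its DMSO signal of 2430 lay below those on the other arrays, 6897, 7588 and 9238. CASP1 was at 0.15 for PHA665752, at -0.01 for MET siRNA and at 0.79 in the control pair. With MET siRNA none of 11 genes of this list passed 2-fold, beside 2.04% of named genes higher and 0.696% lower, and the median was -0.01.

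Among 18 genes induced by IL1 and NF-kB that had a PHA665752 ratio, 4 were past 2-fold higher and 7 lower, with a median of -0.67. Of all named genes, 13.1% were higher and 8.04% lower. Lower among the targets were the growth factor CSF2 (at least 11.0-fold), the chemokines CCL20 (7.88-fold), CXCL8 (2.98-fold), CXCL3 (2.69-fold) and CXCL1 (2.48-fold), the collagenase MMP1 (7.45-fold) and TNFAIP3, an NF-kB feedback inhibitor (3.88-fold). Higher were LCN2, an iron-sequestering protein (at least 7.04-fold), the adhesion molecule ICAM1 (2.88-fold), the cytokine IL6 (2.71-fold) and NFKBIZ, a nuclear NF-kB cofactor (2.65-fold). With MET siRNA, 2.04% of named genes were past 2-fold higher and 0.696% lower. Of the targets, CSF2 (log2 -1.29) and CCL20 (-1.04) were lower past 2-fold in that pair and IL6 (1.22) higher, each in the direction of its PHA665752 ratio, and the median was 0.09. None of these MET siRNA values stayed past 2-fold under normexp correction (-0.78 for both CSF2 and CCL20, 0.97 for IL6). CCL20 was also within 2-fold under plain background subtraction, as was IL6 (0.92) when arrays were scaled to the median of probes well above background. Of the PHA665752 values, those of ICAM1 (0.81), IL6 (0.62), CXCL3 (-0.41) and CXCL8 (-0.31) were within 2-fold under normexp correction, CXCL8 also under plain subtraction.

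These targets also differed between the controls. Of 17 with a ratio, 6 were past 2-fold higher with sc siRNA than with DMSO and 0 lower, with a median of 0.82, led by BIRC3 (log2 3.09), IL6 (2.89) and CXCL8 (1.71). Of all named genes, 2.89% were higher and 1.16% lower in this pair. IL6 had signals of 23.2 for DMSO, 54.2 for PHA665752, 144 for sc siRNA and 347 for MET siRNA, so that both siRNA arrays stood above the PHA665752 array. Of the agonists, IL1A was not well above background on either control array. IL1B was at least 1.10-fold brighter with DMSO, a bound because it was not well above background with sc siRNA, and the ranges of its spots overlapped. Whether the agonists bear on the differences in these targets was not tested. The PHA665752 and control pairs share the DMSO array, and the MET siRNA and control pairs share the sc siRNA array, so a low or high value on a shared array enters both.

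By their brightest probes, among the 6 members well above background on all arrays only IL1R1 and IL1RAP ranged over more than 1 on the log2 scale. The genes nearest to IL1R1 in the centred profile over the 4 arrays were GEMIN6, NAMPT and GALNT12, with root mean square differences of 0.019, 0.026 and 0.028 on the log2 scale, out of 13073 genes compared. Those nearest to IL1RAP were ANLN, BIRC5 and PHF19, at 0.013, 0.019 and 0.021. The receptor chains were not close to each other by this measure, with a difference of 0.25, which put IL1RAP at rank 1308 in the list for IL1R1 and IL1R1 at rank 426 in the list for IL1RAP. With 4 arrays such a likeness is a description of these arrays.

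**Figure D5:**
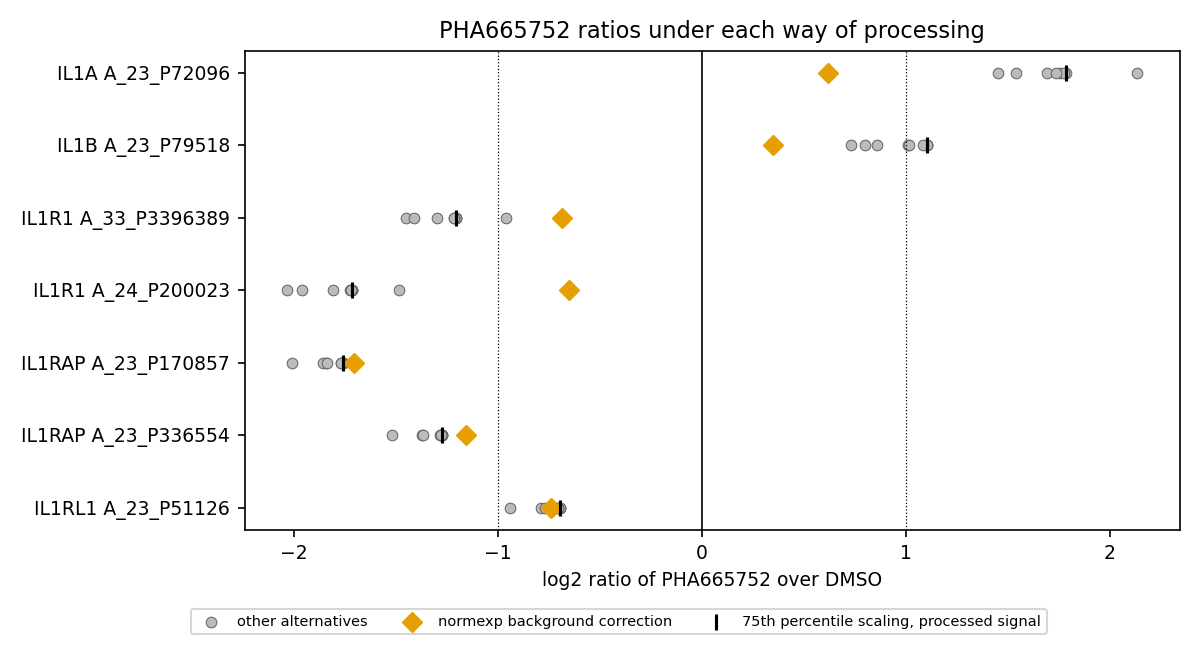
log2 ratio of PHA665752 over DMSO (horizontal axis) for the probes of 5 members under the processing used here (vertical bars), normexp background correction (diamonds) and the other alternatives (circles), with dotted lines at 2-fold. Both IL1RAP probes stay left of the lower line throughout, whereas normexp moves IL1A, IL1B and both IL1R1 probes inside 2-fold.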

How the data were processed

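Scanner output of 4 single-colour Agilent human V2 arrays on 1 slide was available from Feature Extraction 11.5.1.1. Per the file headers, the intensity of a spot that the authors deposited was background-subtracted and spatially detrended by that software, and it is linear and not normalized between arrays. Marks for outlier spots and for spots well above background were used as deposited. The series matrix holds the same intensity for the 33128 probes spotted once (within 0.06) and served as an alternative.

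Outlier spots were left out, replicate spots were combined as the mean of their log2 signals, and each array was centred on its 75th percentile. For a probe with several spots, well above background means that the usable spots with this mark were no fewer than those without. A bound sets the brighter array against the higher of the probe's own signal and the lowest signal well above background on the other array, after scaling. Probes were named through their RefSeq accessions (25771 of 34127, or 75.5%), from a table of another genome build than the array's, used for names and gene order. The brightest probe with a value on each array stood for a gene.

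The members, the marker lists and the lists of 77 further pathway genes were chosen with earlier results of these data known. Named were all members, all other family ligands and receptors, pathway genes past 2-fold with PHA665752 or MET siRNA, and the 3 genes nearest in profile; IRAK1, MYD88, CASP1, BIRC3 and the marker genes given with a ratio were chosen after their values were seen. Pathway genes with no named probe that had a value on each array were not analysed here. Precision is limited by the number of arrays, 1 per condition, and nothing was tested.

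The alternatives were the 50th percentile, quantile normalization, the median of probes well above background, normexp correction (offset 50, on the median spot signal), plain background subtraction, a signal floor of 5, a stricter filter (ratios without bounds), omission of the filter, outlier marks ignored, the series matrix values, the median of a gene's probes and a 1.5-fold threshold. The code for ratios was run on simulated data made from the DMSO array. Among 33770 probes, all 200 changed ones and 0 unchanged ones passed 2-fold. The changed probes were all bright, were shifted by more than 2-fold and had the same small noise as every other probe. The run therefore checks the code alone and does not cover probes as dim as those of IL1A and IL1B. Python 3.11.15, numpy 2.4.6, pandas 2.3.3, matplotlib 3.10.9, R 4.3.3 and limma 3.58.1 were used.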

Additional observations from a re-analysis of the deposited data

How the results depend on the processing

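No paired analysis was possible because each condition has a single array. Of 356 log2 ratios of member probes recomputed under the alternatives, 308 moved by no more than 0.17 on the log2 scale, a limit taken from the noise between spots, and 48 moved further, none of them with a change of sign in a ratio past 2-fold. Many of the 308 could not move. Where a probe is well above background on both arrays, the signal floor, the stricter filter and omission of the filter return the same ratio. The count of members past 2-fold higher with PHA665752, 2 as reported, became 1 under the 50th percentile, quantile normalization, plain background subtraction and the restriction to probes well above background on both arrays, and 0 under normexp correction; the count lower, 2, became 1 under normexp correction and plain subtraction. Between the controls, 1 member was higher under the 1.5-fold threshold. The count of pathway genes higher with PHA665752, 9, became 4 under normexp correction. With MET siRNA, the count higher, 1, became 0 under the median of probes well above background and under normexp correction, 3 when dim probes were not filtered, and 2 from the series matrix values, and the count lower, 2, became 4 under the median of probes well above background, 0 under normexp correction and 1 under plain subtraction. Between the controls, the count lower, 0, became 1 when dim probes were kept. Scaling to the median of probes well above background moved the whole MET siRNA pair by -0.30 on the log2 scale. The causes were not tested, apart from that shift and the smaller set of ratios under the stricter filter. On most arrays IL1A, IL1B and IL33 lay near or below the background limit, where spots of a probe differed most.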
